A study of Mus musculus with 28 samples.

Results

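The genes described here are DNA repair and checkpoint genes outside direct base excision: those of mismatch repair, nucleotide excision repair, strand break repair, the single-strand DNA binding complex RPA and the DNA damage checkpoints. A list of 42 genes was matched to the array annotation and every probe set of a listed gene was kept, however dim. This gave 51 of 12422 probe sets, for 37 genes of the 8251 with a probe set of their own. The remaining 5 listed genes, Xrcc4, Lig4, Atr, Pole and Fanca, were not analysed here. The brightness of different probe sets does not order their RNA amounts, so levels were compared within a probe set.

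Methyl methanesulfonate (MMS) attaches methyl groups to DNA bases. Aag, a glycosylase, removes methylated purines and starts base excision repair, whose intermediates are strand breaks. When such lesions meet a replication fork, single-stranded DNA is bound by RPA, the clamp of Rad9, Rad1 and Hus1 is loaded, and checkpoint kinases are activated, while recombination, end joining and excision pathways handle breaks and bulky lesions. Most cells of adult liver are hepatocytes that do not divide.

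Total RNA of mouse liver had been hybridized to 28 Affymetrix arrays, 1 array per sample. The wild-type (WT) groups were untreated liver (3 arrays) and liver at 6 h (2), 12 h (3), 24 h (2) and 48 h (2) after MMS. The groups of Aag null mice were untreated liver (4) and liver at 6 h (3), 12 h (2), 24 h (4) and 48 h (3) after MMS. The labels give no strain, age, sex, MMS dose or route and no vehicle control, nor whether replicates came from separate animals, so p-values measure the spread between these samples, which may be technical. All levels are log2 signals, and a probe set was called higher or lower where its adjusted p was under 0.05 over all 12422 probe sets (limma, Benjamini-Hochberg). In whole liver, fewer cells of a type and less RNA per cell cannot be told apart.

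The targeted gene, Mpg, which encodes Aag, was dim: it read 2.82, 2.54 and 2.83 in WT and 2.40, 2.33, 2.35 and 2.30 in Aag null untreated liver (-0.38, SE 0.11, adjusted p = 0.026), and 2.38 to 2.87 in treated WT and 2.27 to 2.60 in treated Aag null liver. Whether its probes lie in the deleted stretch is not stated in the labels. Of the 7 untreated arrays, 5 stood apart from the treated ones in a technical measure. Hybridization controls, foreign transcripts spiked in before hybridization, averaged 10.25 to 11.65 in these 5, here the high set, and 6.42 to 9.22 in the other 23, the lower set. The high set held all 3 WT untreated arrays and Aag null untreated replicates 3 and 4, and the Gapdh signal ratio of 3′ to 5′ probes, a sign of RNA quality, was 0.63 to 0.92 (log2) there against -0.37 to 0.21 in treated arrays. Every comparison of treated with untreated WT liver therefore also compares the sets, and values adjusted for array set by a term in the fit stand beside the results. That term rests on the 4 Aag null untreated arrays, since no other group spans both sets. Another 3 arrays (Aag null untreated replicate 3 and 24 h replicates 1 and 2) had female-typical Cyp2b9 levels, at 7.73 to 8.22 against 2.49 to 4.21. The 6 hepatocyte markers examined, Alb and Apoa1 among them, had a mean signal of 10.50 to 10.90 over the 10 groups. Single markers varied more, with Cyp3a11 at 7.82 to 10.71 over the arrays. In WT liver 1 of the 6 was called lower at 6, 12, 24 and 48 h each (against 16.8%, 21.7%, 15.1% and 17.6% of all probe sets). In Aag null liver 1 was called higher at 12 h and at 24 h (against 0.129% and 0.499%) and 0 at 6 and 48 h.

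Of the 51 probe sets, 26 lay below the array median (4.10) on every array (51%, against 38.3% of all probe sets) and 18 lay above it on every array (35.3%, against 39%), and mean signals ran from 1.46 to 8.07. Nucleotide excision repair had the brightest probe set, one of Ddb1 at 8.07, and the dimmest was one of Xrcc5. The SD between arrays of a group had a median of 0.18, against 0.193 over all probe sets. Over the 8 treated groups, group means of a probe set spanned a median of 0.268, and 45 of the 51 spanned under 0.5 (88.2%, against 83.6% of all probe sets).

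**Figure D1:**
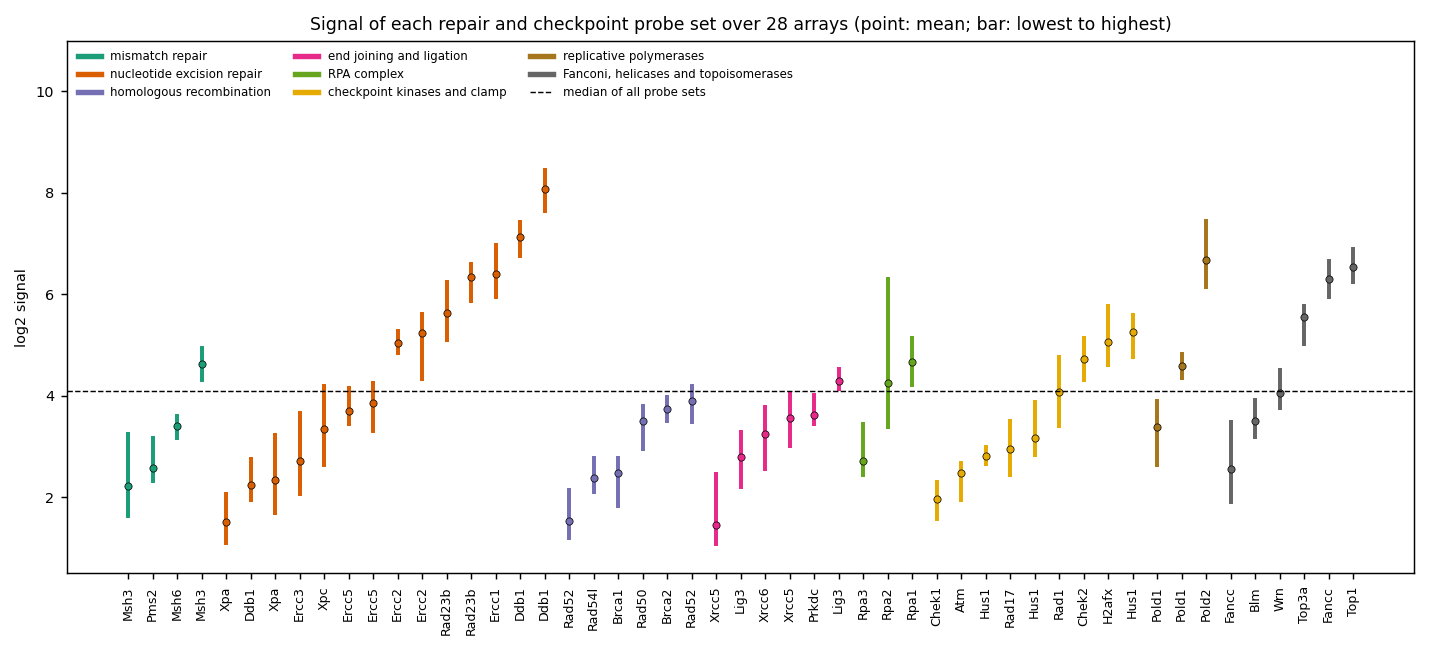
Log2 signal of each of the 51 probe sets over 28 arrays, grouped by role, with the mean as a point and the lowest to highest array as a bar; the dashed line is the median of all probe sets (4.10). The bar of Rpa2 runs from 3.39 to 6.30, and 26 of the bars lie wholly below the line.

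In WT liver 6 of the 51 probe sets were called at 6 h (3 higher, 3 lower), where 16.8% of all probe sets were called (7.42% higher, 9.42% lower). At 12 h 8 were called (3 higher, 5 lower, against 21.7% of all, 10.6% higher and 11.2% lower), and at 24 h 6 (2 higher, 4 lower, against 15.1% of all, 6.44% higher and 8.67% lower). At 48 h 7 were called (4 higher, 3 lower, against 17.6% of all, 7.72% higher and 9.92% lower). As shares of the 51 these were 11.8%, 15.7%, 11.8% and 13.7%, below the share of all probe sets at each time. Median log2 differences of the members were 0.08, 0.06, 0.02 and -0.04, against 0.01, 0.03, 0.02 and 0.02 for all probe sets. At all 4 times the same 5 probe sets were called: those of Rad1 and Brca1 higher, and those of Rpa2, Hus1 and Xrcc5 lower. Of all probe sets, 8.65% were called at all 4 times, against 9.8% of the members. The counts moved with single arrays. Leaving out 1 array gave 6 to 11 at 6 h (11 without WT 6 h replicate 2, 10 without untreated replicate 3) and 5 to 12 at 12 h (5 without 12 h replicate 2). It gave 1 to 8 at 24 h (1 without 24 h replicate 2, 2 without 24 h replicate 1 or untreated replicate 2) and 1 to 11 at 48 h (1 and 4 without 48 h replicates 1 and 2, 11 without untreated replicate 3). With each array centred on its median in place of quantile normalization, the 12 higher and 15 lower calls over the 4 times became 4 higher and 24 lower, while the lower share of all calls over all probe sets went from 54.9% to 70.4%.

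In Aag null liver Rpa2 was the single member called at 6 h, at 12 h and at 24 h, lower each time, where 0.314%, 0.129% and 0.499% of all probe sets were called. At 48 h limma called 0 of the 51 (0.233% of all), with 6 at an unadjusted p under 0.05. Counts at an unadjusted p, here and below, stand without the share of all probe sets at that threshold. They are not read as an excess. Over the 8 responses to MMS, 10 probe sets of 10 genes were called at least once (19.6% of the 51, against 30.1% of all probe sets) and 27 of the 37 genes never.

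**Figure D2:**
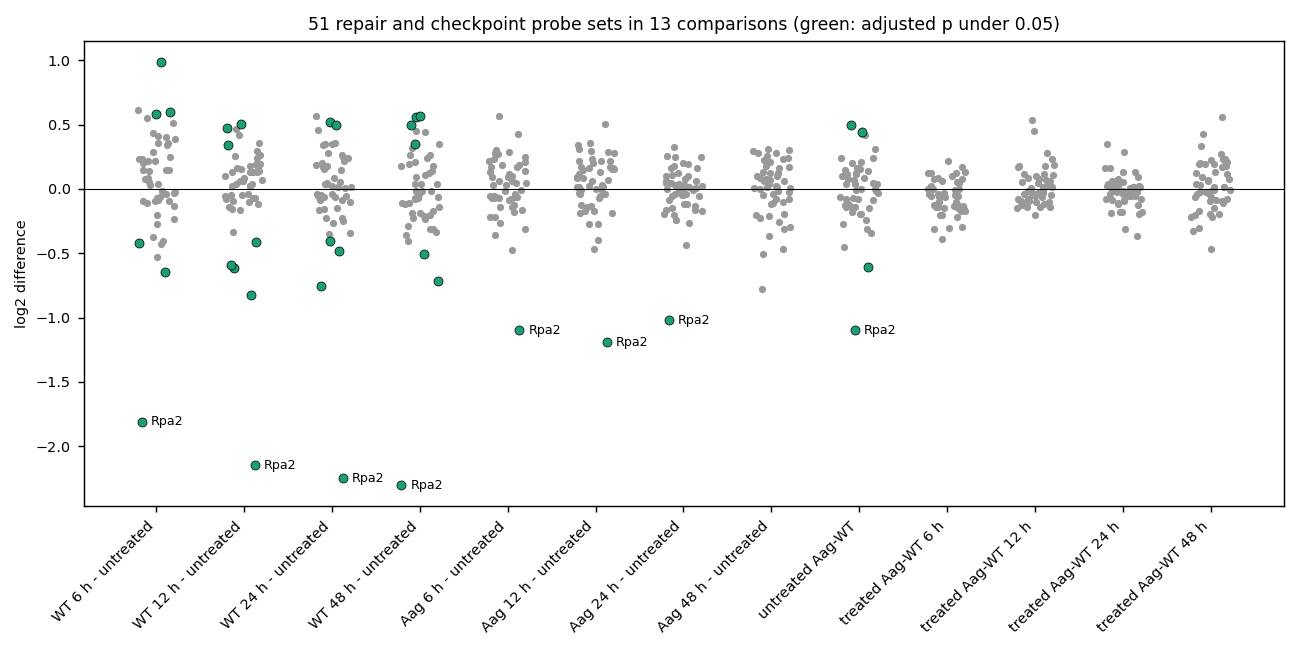
Log2 difference (vertical axis) of each of the 51 probe sets in 13 comparisons: 4 WT and 4 Aag null responses to MMS, Aag null against WT untreated liver, and Aag null against WT liver at each time after MMS. Green points were called; Rpa2 is the lowest point in each WT response (-1.81 to -2.30), and no point is green among the 4 treated genotype comparisons.

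RPA binds single-stranded DNA as a complex of Rpa1, its main DNA-binding subunit, Rpa2, which checkpoint kinases phosphorylate, and the small subunit Rpa3. Rpa2 fell in WT liver after MMS by more than any other listed gene, and the other subunits moved less. In WT untreated liver Rpa2 read 5.97, 6.30 and 5.73. After MMS it read 3.85 and 4.53 at 6 h, 3.90, 3.91 and 3.74 at 12 h, 3.61 and 3.89 at 24 h, and 3.69 and 3.70 at 48 h. Every treated WT array lay more than 1 log2 unit below every untreated one. Log2 differences were -1.81 at 6 h (SE 0.25, adjusted p = 7.15e-05, 3.5-fold lower), -2.15 at 12 h (SE 0.22, adjusted p = 1.23e-06), -2.25 at 24 h (SE 0.25, adjusted p = 6.15e-06) and -2.30 at 48 h (SE 0.25, adjusted p = 2.46e-06, 4.93-fold lower).

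After adjustment for array set, the WT differences of Rpa2 were smaller, at -1.13 (adjusted p = 0.0731), -1.47 (0.00843), -1.57 (0.00743) and -1.62 (0.00572). Rpa2 then stayed called at 12, 24 and 48 h and was the single member called in WT liver, where 2.5%, 2.62% and 2.99% of all probe sets were called. At 6 h 0 members were called with this term (1.49% of all). The Aag null untreated arrays show how Rpa2 went with the set: it read 4.20 and 4.91 on the lower-set arrays and 5.17 and 5.31 on the high-set arrays.

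In Aag null liver after MMS, Rpa2 read 3.39, 4.06 and 3.95 at 6 h, 3.71 and 3.70 at 12 h, 3.94, 3.74, 3.92 and 3.92 at 24 h, and 4.15, 4.06 and 4.15 at 48 h. The highest treated array lay just below the lowest untreated one, so the groups did not overlap. Log2 differences were -1.10 at 6 h (SE 0.21, adjusted p = 0.024), -1.19 at 12 h (SE 0.23, adjusted p = 0.036), -1.02 at 24 h (SE 0.19, adjusted p = 0.0156) and -0.78 at 48 h (SE 0.21, adjusted p = 0.0959). Set against Aag null untreated replicates 1 and 2, of the lower set, they were -0.76, -0.85, -0.68 and -0.44, with adjusted p = 0.158, 0.154, 0.134 and 0.541. With values as deposited the 12 h difference was not called (-1.14, adjusted p = 0.0522). Each Aag null call of Rpa2 was also lost without untreated replicate 3 (adjusted p = 0.0936, 0.112 and 0.0603) or replicate 4 (0.0916, 0.112 and 0.0558). Calls at 6 h were lost without 6 h replicate 1 (0.161) or 3 (0.0542), those at 12 h without 12 h replicate 1 (-1.20, 0.792) or 2 (-1.19, 0.558) and those at 24 h without 24 h replicate 1 (0.0631) or 2 (0.0811). At 12 h the difference itself hardly moved. Here and below, leaving out 1 array of a group of 2 leaves a lone array, which the fit assumes to vary like the arrays of other groups. Without untreated replicate 1 the 48 h difference was called (-1.01, adjusted p = 0.00377).

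**Figure D3:**
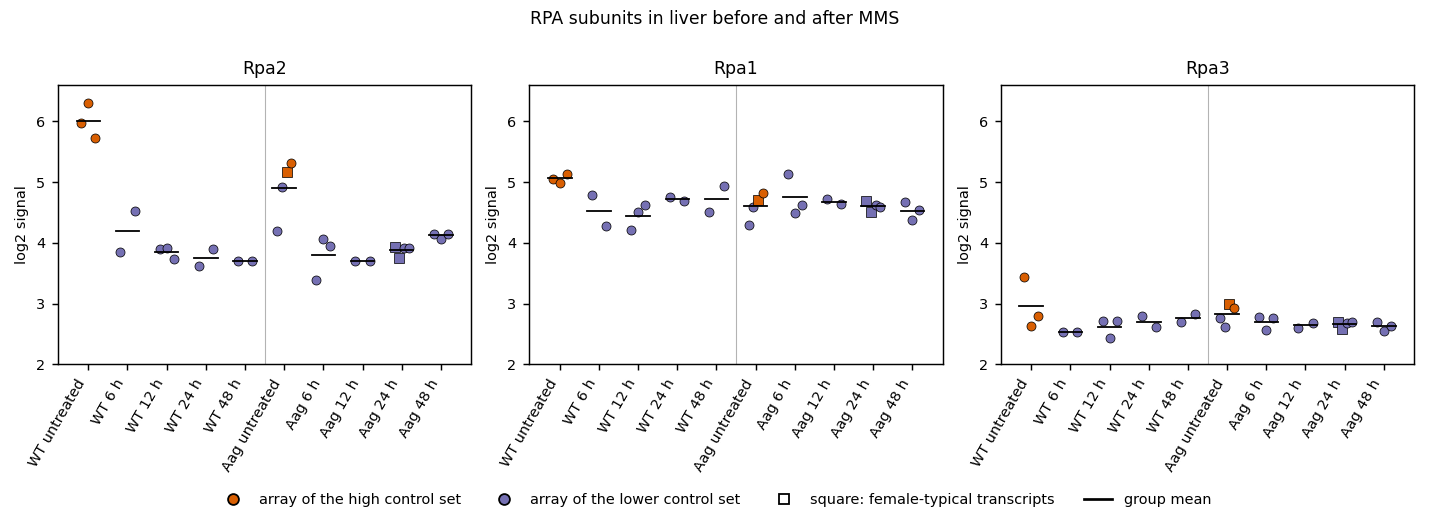
Log2 signal (vertical axis) of the RPA subunits on every array, by genotype and time after MMS; bars are group means, orange points are arrays of the high set of hybridization controls, purple points the lower set, and squares the arrays with female-typical transcripts. Rpa2 reads 5.73 to 6.30 in WT untreated liver, 4.20 to 5.31 in Aag null untreated liver and 3.39 to 4.53 on the treated arrays, while Rpa1 and Rpa3 stay within narrower ranges.

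Rpa1 read 5.05, 4.99 and 5.14 in WT untreated liver, and 4.79 and 4.27 at 6 h, 4.22, 4.50 and 4.62 at 12 h, 4.75 and 4.69 at 24 h, and 4.52 and 4.94 at 48 h after MMS. All treated WT arrays lay below the untreated ones, and the difference was called at 12 h alone (-0.61, SE 0.17, adjusted p = 0.0113). It was -0.53 at 6 h (adjusted p = 0.0534), -0.34 at 24 h and -0.34 at 48 h, and after adjustment for array set it was -0.29 at 12 h (adjusted p = 0.639). The 12 h call was lost without WT 12 h replicate 1 (adjusted p = 0.0704), and the 6 h difference was called with 6 h replicate 2 as the lone array of its group (-0.79, adjusted p = 0.0183). In Aag null liver Rpa1 read 4.30, 4.60, 4.71 and 4.83 untreated and 4.38 to 5.14 (median 4.62) on the 12 treated arrays, and differences ran from -0.08 to 0.14. Rpa3, dimmer, read 3.44, 2.63 and 2.80 in WT untreated liver and 2.44 to 2.83 (median 2.70) on the 9 treated WT arrays, which overlapped. Its WT differences ran from -0.43 (6 h, SE 0.16, adjusted p = 0.0743) to -0.19 (48 h), and none was called. Without WT untreated replicate 2 the 6 h and 12 h differences were called (-0.59 and -0.50, adjusted p = 0.0141 and 0.0178), and without replicate 3 the 6 h one (adjusted p = 0.0478). Median centring also called both (-0.55 and -0.45, adjusted p = 0.0128 and 0.016), and values as deposited the 6 h one (-0.44, 0.0477). Aag null liver read 2.62 to 3.00 untreated and 2.54 to 2.77 (median 2.68) treated.

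The promoters of the RPA genes are shown for description. A link between their letters and the unequal differences of the 3 subunits was not tested. Each is 250 bases before to 50 bases after the gene's start, from RefSeq (GRCm38.p6), written 5′ to 3′ on the gene's strand. Capitals mark CCAAT boxes, read on either strand (ATTGG is the reverse). Rpa2 lies at chr4:132768110-132768409 on the plus strand, Rpa1 at chr11:75348334-75348633 on the minus strand and Rpa3 at chr6:8259092-8259391 on the minus strand.
Rpa2: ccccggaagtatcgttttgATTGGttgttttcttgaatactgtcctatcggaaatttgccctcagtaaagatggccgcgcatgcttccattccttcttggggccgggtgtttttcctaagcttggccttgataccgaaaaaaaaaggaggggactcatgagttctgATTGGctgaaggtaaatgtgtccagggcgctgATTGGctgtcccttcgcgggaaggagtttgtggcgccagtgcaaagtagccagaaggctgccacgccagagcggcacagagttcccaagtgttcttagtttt
Rpa1: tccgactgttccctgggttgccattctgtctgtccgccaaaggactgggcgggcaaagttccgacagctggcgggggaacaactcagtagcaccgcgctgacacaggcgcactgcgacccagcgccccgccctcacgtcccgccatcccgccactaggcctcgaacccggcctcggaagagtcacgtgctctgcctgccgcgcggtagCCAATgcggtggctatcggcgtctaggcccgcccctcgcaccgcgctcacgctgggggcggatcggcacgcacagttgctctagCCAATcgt
Rpa3: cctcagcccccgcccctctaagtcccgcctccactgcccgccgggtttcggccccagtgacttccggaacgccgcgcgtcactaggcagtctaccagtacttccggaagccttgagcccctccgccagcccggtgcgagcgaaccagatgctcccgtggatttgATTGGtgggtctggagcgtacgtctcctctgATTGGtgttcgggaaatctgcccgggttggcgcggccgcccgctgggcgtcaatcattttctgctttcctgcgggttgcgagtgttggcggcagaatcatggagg
The Rpa2 promoter held 3 CCAAT boxes, those of Rpa1 and Rpa3 2 each. The letters GGGCGG, an Sp1 box on either strand, occurred 0 times in Rpa2, 4 times in Rpa1 and 2 times in Rpa3. GC content was 50.7%, 67.7% and 64.3%. Over 32851 RefSeq mouse promoters of this length, 37.4% held CCAAT and 35.7% held GGGCGG. Counted by gene, 3.88% of 27025 genes held 3 or more CCAAT boxes.

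Over all members, 30 of the 37 genes had a promoter in this table. Those of Wrn, Top3a, Prkdc, Rad50, Xpc, Ercc3 and H2afx were not matched. CCAAT stood in 18 of 30 (60%, against 41.1% of 27025 genes) and GGGCGG in 19 (63.3%, against 38.2%). The median GC content of the members was 61% against 52.7% over all promoters. The 4 forms TTTCCCGC, TTTGGCGC, TTTGCCGC and TTTCGCGC of the site of E2F, the factor of genes of DNA replication, were searched on both strands. They stood in 6 of 30 genes (20%), against 2.26% of all promoters and 2.6% of 27025 genes. These 6 are shown as the stretch around the site, with the site in capitals and 10 flanking bases where the window allows. They lie at chr5:150522443-150522470 (plus strand), chr5:110839821-110839848 (plus), chr13:92355184-92355215 (minus), chr17:87975055-87975082 (plus), chr7:44548766-44548786 (minus) and chr15:82016313-82016340 (plus).
Brca2: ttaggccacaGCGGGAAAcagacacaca
Chek2: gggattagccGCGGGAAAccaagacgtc
Msh3: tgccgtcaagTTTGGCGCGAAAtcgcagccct
Msh6: tcctcccgacTTTCCCGCcagcggcggc
Pold1: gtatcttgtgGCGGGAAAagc
Xrcc6: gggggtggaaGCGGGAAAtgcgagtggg
In Msh3 2 overlapping forms on opposite strands make up the capitals. None of the probe sets of these 6 genes was called in any of the 8 responses to MMS. In any of these responses, 19.6% of the member probe sets and 30.1% of all probe sets were called. Whether the sites go with the calls was not tested. A match describes the letters in the window, and binding was not measured.

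Among the clamp and checkpoint genes, Rad1 was higher and 1 of 3 Hus1 probe sets lower at every time in WT liver. Rad1, with Hus1 and Rad9 part of the ring loaded at damaged DNA, read 3.74, 3.40 and 3.60 in WT untreated liver. After MMS it read 4.76 and 4.37 at 6 h, 4.13, 4.06 and 3.96 at 12 h, 4.11 and 4.05 at 24 h, and 4.08 and 4.07 at 48 h. The groups did not overlap, and the 6 h arrays were highest. The log2 difference was 0.99 at 6 h (SE 0.17, adjusted p = 0.000471, 1.98-fold), 0.47 at 12 h (SE 0.15, adjusted p = 0.0269), 0.50 at 24 h (SE 0.17, adjusted p = 0.0456) and 0.50 at 48 h (SE 0.17, adjusted p = 0.0434). Allowing for the array set, it was 0.69 (adjusted p = 0.153), 0.18, 0.21 and 0.20. The calls at 12, 24 and 48 h were each lost without WT untreated replicate 2 (adjusted p = 0.101, 0.131 and 0.127), and those at 24 and 48 h without WT untreated replicate 3 (0.0601 and 0.0607). They were also lost without 12 h replicate 1 (0.0929) or 2 (0.0722), either 24 h array (0.215 and 0.178) or either 48 h array (0.155 and 0.155). With median centring those at 24 and 48 h were not called (0.48 and 0.47, adjusted p = 0.0536 and 0.0521).

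For Aag null liver, Rad1 values were 4.10, 4.24, 3.65 and 4.09 untreated, and 4.61, 4.14 and 4.05 at 6 h, 4.09 and 3.99 at 12 h, 4.10, 3.98, 4.14 and 4.05 at 24 h, and 3.96, 4.24 and 4.15 at 48 h. The untreated array at 3.65 had both the high control set and the female-typical pattern, and the other untreated arrays lay within the treated range. The highest array, 6 h replicate 1 (4.61), had the lowest hybridization controls of the Aag null arrays (6.59). Differences were 0.25, 0.02, 0.05 and 0.10, and none was called.

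Hus1 had 3 probe sets that did not move together. The middle one in brightness read 3.54, 3.89 and 3.54 in WT untreated liver, and 3.15 and 3.33 at 6 h, 2.93, 3.20 and 3.08 at 12 h, 3.18 and 3.17 at 24 h, and 3.13 and 3.18 at 48 h after MMS. Every treated WT array was lower, with differences of -0.42 (SE 0.13, adjusted p = 0.0325), -0.59 (SE 0.12, adjusted p = 0.00117), -0.48 (SE 0.13, adjusted p = 0.0163) and -0.50 (SE 0.13, adjusted p = 0.0109). The brightest Hus1 probe set had the opposite sign: it read 5.19, 4.77 and 5.16 untreated and 5.16 to 5.60 (median 5.41) on the 9 treated WT arrays. Its differences were 0.36, 0.42, 0.35 and 0.14, none called (adjusted p = 0.0507 at 12 h). The dimmest Hus1 probe set read 2.68, 2.66 and 2.69 untreated and 2.67 to 2.93 on the 9 treated WT arrays, and was not called. All treated WT arrays but 12 h replicate 1 (2.67) lay above its untreated ones. The direction of Hus1 RNA in WT liver is therefore not settled by these probe sets. In livers lacking Aag the middle probe set read 2.83, 3.19, 3.06 and 3.12 untreated and 2.95 to 3.29 (median 3.10) treated, and the brightest 5.38, 5.17, 4.85 and 4.78 untreated and 5.02 to 5.45 (median 5.32) treated. The calls of the middle probe set were lost at 6 h without 6 h replicate 1 (0.174) or untreated replicate 2 (0.117), at 24 h without either 24 h array (0.101 and 0.118) or untreated replicate 2 (0.0653), and at 48 h without either 48 h array (0.0772 and 0.0523). At 12 h the brightest was called without WT untreated replicate 1 (adjusted p = 0.0463) or 3 (0.0438). With values as deposited the middle one was not called at 6 h (-0.34, adjusted p = 0.0836) and the brightest was called at 12 h (0.52, 0.0155), as it was with median centring (0.41, 0.0339). Adjusted for array set, the differences of the middle probe set were -0.34, -0.51, -0.40 and -0.43, little smaller, and none was called (adjusted p = 0.438, 0.17, 0.309 and 0.25).

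H2afx, the histone variant phosphorylated beside DNA breaks, was called higher in WT liver at 6 h and in no other response. It lies outside the rule for named genes and was chosen after its values were seen. It read 5.03, 4.75 and 5.18 in WT untreated liver and 5.75 and 5.42 at 6 h, against 4.98, 5.19 and 4.97 at 12 h, 5.26 and 4.60 at 24 h, and 4.81 and 4.95 at 48 h. Aag null arrays of H2afx read 4.74, 4.78, 5.01 and 4.96 untreated, 5.78, 5.07 and 5.46 at 6 h, and 5.33 and 5.13 at 12 h. In both genotypes all 6 h arrays lay above all untreated arrays. The 6 h difference was 0.60 in WT (SE 0.20, adjusted p = 0.043) and 0.56 in Aag null liver (SE 0.17, adjusted p = 0.133, 95% interval 0.22 to 0.91). After adjustment for array set, these were 0.82 (adjusted p = 0.172) and 0.68 (0.258). The test of the difference between the genotypes gave -0.03 (95% interval -0.57 to 0.51) without that adjustment and -0.14 (adjusted p = 0.945) with it. The highest array of each genotype, 6 h replicate 1, also had the lowest hybridization controls of all 28 arrays (6.42 in WT and 6.59 in Aag null), and without the WT array the WT difference was 0.43 (adjusted p = 0.235). The WT call was also lost without WT untreated replicate 1 (0.067) or 2 (0.13).

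Of the other checkpoint genes, the clamp loader subunit Rad17 and the kinases Atm, Chek1 and Chek2 were not called in any response. Over the 9 probe sets of the checkpoint group, 3, 2, 2 and 2 were called in WT liver at 6, 12, 24 and 48 h (against 16.8%, 21.7%, 15.1% and 17.6% of all probe sets) and 0 at each time in Aag null liver (against 0.314%, 0.129%, 0.499% and 0.233%). Their median differences in WT liver were 0.34, 0.16, 0.18 and 0.11 in the same order.

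**Figure D4:**
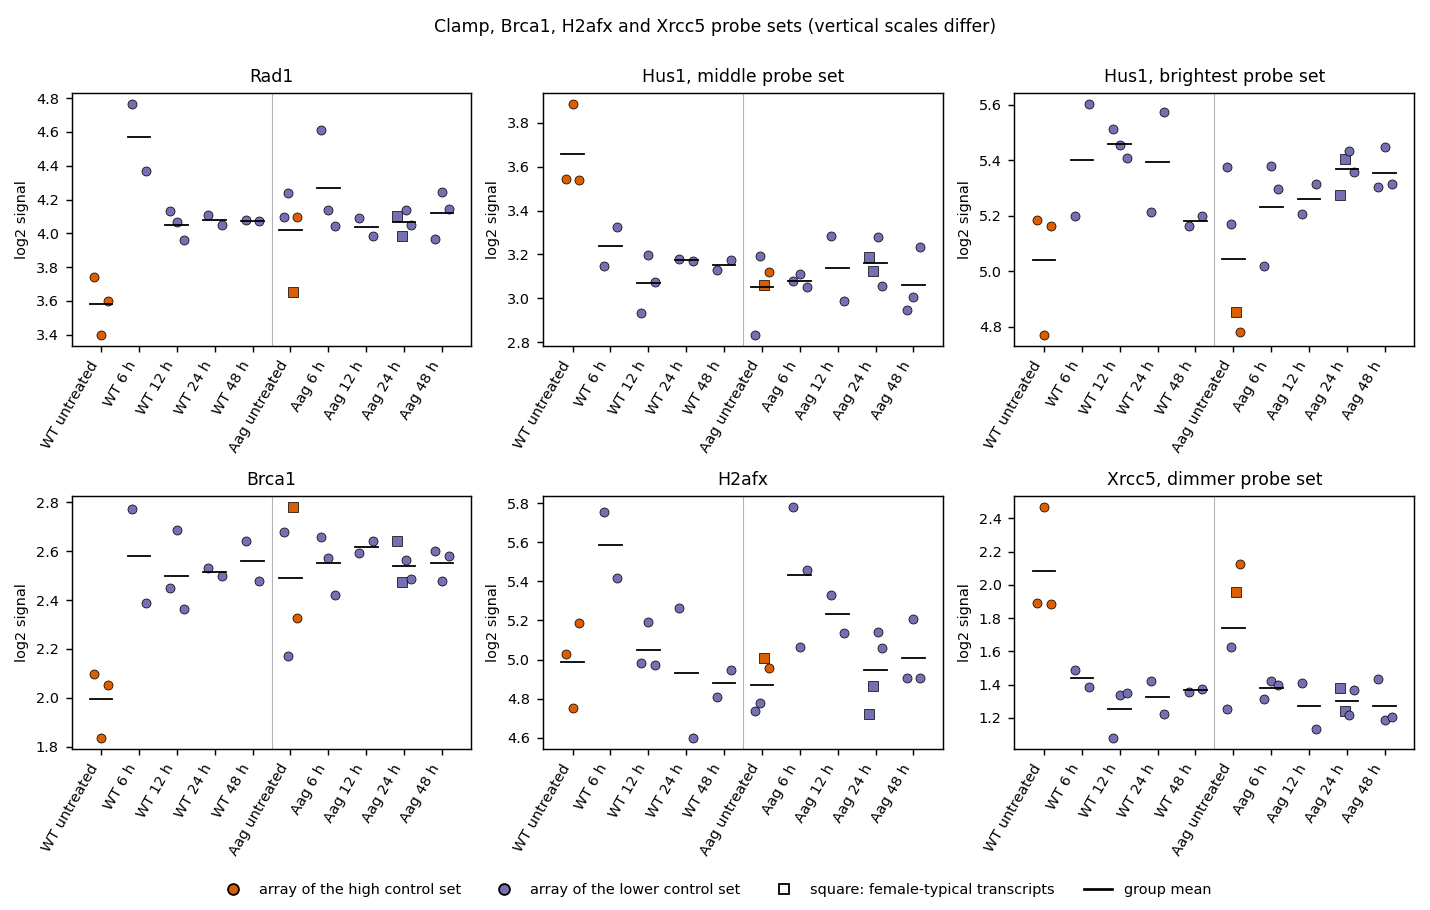
Log2 signal (vertical axes, which differ between panels) on every array for Rad1, the middle and the brightest Hus1 probe sets, Brca1, H2afx and the dimmer Xrcc5 probe set, by genotype and time after MMS; bars are group means, orange points the high set of hybridization controls, purple points the lower set, squares female-typical arrays. Rad1 and H2afx are highest at 6 h, and the WT untreated arrays stand apart from treated WT arrays for Rad1, the middle Hus1 probe set, Brca1 and Xrcc5.

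In homologous recombination, Brca1 was higher in WT liver at every time and Rad54l at 48 h. Brca1, which acts in the repair of breaks by recombination, was dim and read 2.10, 1.84 and 2.05 in WT untreated liver. After MMS it read 2.77 and 2.39 at 6 h, 2.45, 2.69 and 2.36 at 12 h, 2.53 and 2.50 at 24 h, and 2.64 and 2.48 at 48 h. The groups did not overlap. Differences were 0.59 (SE 0.15, adjusted p = 0.0107), 0.50 (SE 0.14, adjusted p = 0.0102), 0.52 (SE 0.15, adjusted p = 0.0221) and 0.56 (SE 0.15, adjusted p = 0.0123). Allowing for the array set they were 0.72, 0.63, 0.65 and 0.69, and none was called (adjusted p = 0.12, 0.13, 0.136 and 0.0961). With median centring they were 0.34, 0.26, 0.28 and 0.31, and none was called (0.0823, 0.136, 0.171 and 0.124). With values as deposited those at 24 and 48 h were not called (0.38 and 0.39, adjusted p = 0.0819 and 0.0676). Calls were lost at 6 h without WT 6 h replicate 1 (adjusted p = 0.137), at 12 h without 12 h replicate 2 (0.0664), at 24 h without untreated replicate 2 (0.0708) or either 24 h array (0.137 and 0.122), and at 48 h without 48 h replicate 1 (0.118). Aag null arrays of Brca1 read 2.68, 2.17, 2.78 and 2.33 untreated and 2.42 to 2.66 (median 2.58) treated, with differences of 0.05 to 0.13.

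Rad54l, a motor protein of recombination and also outside the naming rule, read 2.10, 2.34 and 2.29 in WT untreated liver and 2.78 and 2.41 at 48 h. That difference was called (0.35, SE 0.11, adjusted p = 0.0319), and without WT 48 h replicate 1 it was 0.17 (adjusted p = 0.44). Without WT untreated replicate 1 the adjusted p was 0.103. It was not called with values as deposited (0.21, adjusted p = 0.298) or with median centring (0.12, 0.486). The brightest probe set of the group, one of the annealing protein Rad52, read 3.49 to 4.16 (median 3.81) over the 7 untreated arrays and 3.76 to 4.20 (median 3.91) over the 21 treated ones. The ranges overlapped, and its differences were between -0.07 and 0.23. Rad50, of the complex that tethers broken ends, and Brca2 were not called in any response.

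In nucleotide excision repair 2 of 14 probe sets were called, each at 2 times in WT liver. Of all probe sets, 30.1% were called in at least 1 of the 8 responses. Xpa, the scaffold that verifies damage, rose on the dimmer of its probe sets, whose mean signal lay at percentile 1.78 of all probe sets, from 1.27, 1.62 and 1.10 in WT untreated liver to 1.51, 1.65 and 1.85 at 12 h and 2.06 and 1.71 at 48 h. The 12 h arrays overlapped the untreated ones and the 48 h arrays did not. Differences were 0.34 (SE 0.12, adjusted p = 0.0461) and 0.56 (SE 0.14, adjusted p = 0.00635), and adjusted for array set 0.10 and 0.32 (adjusted p = 0.86 and 0.388). The arrays at 6 h read 1.47 and 1.47, those at 24 h 1.35 and 1.48, and those of treated Aag null liver 1.35 to 1.74 (median 1.52). The 12 h call was lost without 12 h replicate 2 (adjusted p = 0.094) or 3 (0.207) or untreated replicate 1 (0.118) or 3 (0.198), and the 48 h call without 48 h replicate 1 (0.146). Neither was called with values as deposited (0.16 and 0.32, adjusted p = 0.399 and 0.126) or with median centring (0.04 and 0.24, 0.851 and 0.261).

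Ddb1, the adaptor of the ubiquitin ligase that senses ultraviolet damage, had 3 probe sets, of which 1 was the brightest of all members, another was also bright and the third was dim. Their WT differences did not all have the same sign. The dim one read 2.76, 2.68 and 2.24 in WT untreated liver, 2.22, 2.29 and 1.95 at 12 h, and 2.17 and 2.15 at 24 h. The 12 h arrays overlapped the untreated ones and the 24 h arrays lay below them. Its differences of -0.41 (SE 0.12, adjusted p = 0.0142) and -0.40 (SE 0.13, adjusted p = 0.0383) were called, and after adjustment for array set they were -0.35 and -0.34 (adjusted p = 0.384 and 0.398). The 12 h call was lost without 12 h replicate 3 (adjusted p = 0.0968) or untreated replicate 1 (0.0783) or 2 (0.0528), and the 24 h call without either 24 h array (0.159 and 0.201) or untreated replicate 1 (0.136) or 2 (0.101). Without untreated replicate 3, the dim one was called at 6 h and 48 h too (adjusted p = 0.003 and 0.00576), as it was with values as deposited (0.0178 and 0.0197) and with median centring (0.00397 and 0.00602). The bright probe set read 8.23, 8.45 and 8.31 in WT untreated liver and 7.88 to 8.44 (median 8.04) on the treated WT arrays, with differences of -0.09, -0.09, -0.35 and -0.40, none called. The other bright one, at percentile 93.9 of all probe sets, read 7.12, 6.96 and 7.32 in WT untreated liver and 6.96 to 7.43 (median 7.17) on the treated WT arrays, with differences of 0.23, 0.13, 0.02 and -0.14, none called. The direction of Ddb1 RNA is therefore not settled by these probe sets. The lesion sensor Xpc with its partner Rad23b, the nuclease genes Ercc1 and Ercc5 and the helicase genes Ercc2 and Ercc3 of transcription factor TFIIH were not called in any response. The largest of their WT differences was 0.61, for the brighter Ercc2 probe set at 6 h (SE 0.24, adjusted p = 0.0767).

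In end joining, Xrcc5 and Xrcc6 encode the Ku heterodimer, which binds broken ends, and Prkdc the kinase that Ku recruits. Xrcc5 was called lower on the dimmer of its probe sets, whose mean signal lay at percentile 1.26 of all probe sets. It read 1.89, 2.47 and 1.88 in WT untreated liver and 1.08 to 1.49 (median 1.36) on the 9 treated WT arrays. The groups did not overlap, and differences were -0.64 (SE 0.19, adjusted p = 0.0201), -0.82 (SE 0.17, adjusted p = 0.00115), -0.76 (SE 0.19, adjusted p = 0.00774) and -0.71 (SE 0.19, adjusted p = 0.00991). In Aag null untreated liver the lower-set arrays read 1.26 and 1.62 and the high-set arrays 1.95 and 2.13, and allowing for the array set the WT differences were -0.04, -0.22, -0.16 and -0.12. Calls were lost at 6 h without 6 h replicate 2 (adjusted p = 0.0721) or untreated replicate 2 (0.0893), at 24 h without 24 h replicate 2 (0.118), and at 48 h without either 48 h array (0.0639 and 0.0599). In treated Aag null liver it read 1.13 to 1.44 (median 1.34), and differences at 24 and 48 h were called without untreated replicate 1 alone (adjusted p = 0.0185 and 0.0126). The brighter Xrcc5 probe set had the opposite sign in WT liver, with differences of 0.41, 0.26, 0.15 and 0.32, none called. Xrcc6, Prkdc and Lig3, the ligase of Xrcc1, were not called in any response. The brighter Lig3 probe set read 4.18 to 4.40 (median 4.23) untreated and 4.13 to 4.53 (median 4.31) treated.

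Mismatch repair, the replicative polymerases and the group of Fanconi, helicase and topoisomerase genes had 0 of 4, 0 of 3 and 0 of 6 probe sets called by limma in each of the 8 responses. Of all probe sets, 30.1% were called in at least 1 of these responses. At unadjusted p under 0.05 each group had 0 or 1 in each response. Msh3, which binds insertion loops, read 4.58 to 4.95 (median 4.69) on its brighter probe set over the 7 untreated arrays and 4.32 to 4.81 (median 4.60) over the 21 treated ones. Pold2, the accessory subunit of polymerase delta, read 6.29 to 6.79 (median 6.52) untreated and 6.15 to 7.45 (median 6.72) treated. Top1, which relaxes supercoils, read 6.25 to 6.89 (median 6.42) untreated and 6.28 to 6.85 (median 6.55) treated. For each of the 3 the ranges overlapped, and log2 differences in the 8 responses lay between -0.21 and 0.30. Pold2 was called at 6 h in WT liver with 6 h replicate 2 as the lone array of its group (0.82, adjusted p = 0.0195), and Top1 at 24 h without WT untreated replicate 3 (0.48, adjusted p = 0.0169). Msh6 and Pms2 of mismatch repair, the catalytic subunit Pold1, the Fanconi gene Fancc, the helicase genes Blm and Wrn, and Top3a were likewise not called.

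Without MMS, the genotypes differed in 4 of the 51 probe sets (2 higher, 2 lower), where 9.36% of all probe sets were called (3.69% higher, 5.68% lower). Brca1 and Rad1 were higher in Aag null than in WT untreated liver, and Rpa2 and the middle Hus1 probe set were lower. Rpa2 had the largest difference, at -1.10 (SE 0.21, adjusted p = 0.00176), from a mean of 6.00 ± 0.29 (SD, n = 3) in WT to 4.90 ± 0.49 (SD, n = 4) in Aag null liver, and no arrays overlapped. Hus1 had a difference of -0.60 (SE 0.11, adjusted p = 0.00154), and the other Hus1 probe sets gave 0.00 (brightest) and 0.13 (dimmest). Brca1 had a difference of 0.49 (SE 0.13, adjusted p = 0.0164) with no overlap, and Rad1 one of 0.44 (SE 0.14, adjusted p = 0.0492), with 1 Aag null array within the WT range. The Brca1 call was lost with values as deposited (0.31, adjusted p = 0.123) and with median centring (0.28, 0.127), and the Rad1 call with median centring (0.41, 0.0612). The dimmer Xrcc5 probe set was then called lower (-0.52 as deposited and -0.54 with median centring, adjusted p = 0.0341 and 0.0295), as was the dim Ddb1 one with median centring (-0.34, 0.042). Allowing for the array set, 4 members were called (4.81% of all): Rpa2 at -0.76 (adjusted p = 0.0412), Hus1 at -0.56 (0.0168), Brca1 at 0.56 (0.0357) and Xrcc6 at 0.67 (0.0372), while Rad1 was 0.29 (0.311). Xrcc6, named after its values were seen, read 2.94, 2.57 and 3.43 in WT and 3.09, 3.25, 3.51 and 3.78 in Aag null untreated liver, which overlapped. Rpa2, Hus1, Brca1 and Rad1 were also called in the WT responses, and both comparisons share the 3 WT untreated arrays. The Brca1 call was lost without WT untreated replicate 2 (adjusted p = 0.0702) or Aag null untreated replicate 1 (0.0566). The Rad1 call was lost without WT untreated replicate 2 (0.174) or 3 (0.0724) or Aag null untreated replicate 1 (0.108), 2 (0.145) or 4 (0.0891). Rpa1, at -0.45 (adjusted p = 0.071), was called without Aag null untreated replicate 4 (-0.52, adjusted p = 0.0469), and the dim Ddb1 probe set, at -0.19, without WT untreated replicate 3 (-0.35, adjusted p = 0.0233).

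After MMS, with all arrays in the lower set, limma called 0 of the 51 probe sets between the genotypes at 6, 12, 24 or 48 h, where 0.0483%, 0.00805%, 0% and 0% of all probe sets were called. At unadjusted p under 0.05 the counts were 0, 0, 1 and 3. For the mean of the 4 times limma also called 0 (0.0725% of all), with 0 at unadjusted p under 0.05. Rpa2 differed between Aag null and WT treated liver by -0.39 at 6 h (95% interval -0.90 to 0.12), -0.14 at 12 h (-0.65 to 0.37), 0.13 at 24 h (-0.35 to 0.61) and 0.42 at 48 h (-0.08 to 0.93). The smallest unadjusted p among the members was that of the dimmer Xpa probe set at 48 h, with a difference of -0.46 (SE 0.14, adjusted p = 0.999). Its WT arrays (2.06 and 1.71) lay above the Aag null arrays (1.48, 1.36 and 1.43).

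The responses of the genotypes were also compared directly. Rpa2 was called at 48 h, where 1.8% of all probe sets were called: its fall was smaller in Aag null than in WT liver by 1.52 (SE 0.32, adjusted p = 0.0143). The same difference was 0.71 at 6 h, 0.96 at 12 h and 1.23 at 24 h, with adjusted p = 0.377, 0.226 and 0.0667. The value at 48 h is the treated genotype difference of 0.42 minus the untreated one of -1.10, and all 4 tests share that untreated difference. Adjusted for array set, it was 1.18 (adjusted p = 0.0415), and without WT 48 h replicate 1 its adjusted p was 0.0963. At 6, 12 and 24 h limma called 0 members (0.7%, 0.572% and 0.564% of all), with 7, 4 and 5 at unadjusted p under 0.05. The shares in brackets are of adjusted calls and cannot be set against the unadjusted counts. Leaving out 1 array made calls at these times for Rpa2 at 24 h (without Aag null untreated replicate 4 or WT untreated replicate 3, adjusted p = 0.0309 and 0.0272) and for the middle Hus1 probe set at 12 and 24 h (without WT untreated replicate 3, 0.0356 and 0.048). It did so for Rad1 at 6 h (without Aag null 6 h replicate 1, Aag null untreated replicate 3 or WT 6 h replicate 2, 0.0355, 0.0409 and 0.0486) and, at 48 h, for Xpa (dimmer probe set, without WT untreated replicate 2, 0.022). After adjustment for array set, Ercc5, on its dimmer probe set and named after its values were seen, was also called at 48 h (-0.65, adjusted p = 0.0258, where 1.89% of all were called). Without that adjustment the Ercc5 probe sets had opposite signs at 48 h. The dimmer one gave -0.36 in Aag null and 0.04 in WT liver, the brighter one 0.28 and -0.23. The direction of this Ercc5 difference is therefore not settled by these probe sets.

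Late treated liver (24 and 48 h) was set against early treated liver (6 and 12 h) within each genotype, which uses no untreated array. Limma called 0 members in WT (0.33% of all) and 0 in Aag null liver (0.121%), with 4 at unadjusted p under 0.05 in each. H2afx gave the smallest p in WT liver, lower late by -0.41 (SE 0.15, adjusted p = 0.471), and a like value in Aag null liver (-0.36, SE 0.13, adjusted p = 0.623). In Aag null liver Ercc3, a TFIIH helicase, gave the smallest p, with a difference of -0.54 (SE 0.17, adjusted p = 0.407). Ercc3 read 3.66, 2.84 and 2.58 at 6 h there and 3.11 and 2.98 at 12 h. Its highest array, 6 h replicate 1, had the lowest hybridization controls of the Aag null arrays (6.59).

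Other genes of the same pathways, 40 genes with 47 probe sets that are no members, gave counts of the same order in WT liver. At 6, 12, 24 and 48 h 9, 10, 7 and 8 of the 47 were called (19.1%, 21.3%, 14.9% and 17%). These lay near the shares of all probe sets, 16.8%, 21.7%, 15.1% and 17.6%. In Aag null liver 0 were called at every time (against 0.314%, 0.129%, 0.499% and 0.233% of all), with 7, 3, 10 and 4 at unadjusted p under 0.05. The phosphatase genes Cdc25a and Cdc25c, whose products start cell cycle transitions, were higher at all 4 WT times on a single probe set each. Timeless, of the replication fork, was also higher at all 4. Cdc25a was highest relative to its error at 12 h (0.57, SE 0.08, adjusted p = 5.35e-05), yet its other probe set was lower at all 4 times (-0.64 at 24 h, SE 0.14). Cdc25c was 1.00 higher at 48 h (SE 0.21, adjusted p = 0.00186) and Timeless 0.60 higher at 12 h (SE 0.13, adjusted p = 0.00239). The other Cdc25c probe set was called at no time, with its smallest adjusted p at 24 h in WT liver (0.27, limma adjusted p = 0.176). Cetn2, a partner of Xpc, was lower by -1.09 at 12 h (SE 0.19, adjusted p = 0.000367), and Pole2, a polymerase epsilon subunit, by -0.46 at 48 h (SE 0.12, adjusted p = 0.0102). Allowing for the array set, Timeless was 0.56 and Pole2 -0.42, Cdc25a 0.35, Cdc25c 0.76 and Cetn2 -0.77, with adjusted p of 0.127 or more for each.

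Markers of other cell types are given beside these results. Of all probe sets, 16.8%, 21.7%, 15.1% and 17.6% were called in WT liver at 6, 12, 24 and 48 h. In Aag null liver these shares were 0.314%, 0.129%, 0.499% and 0.233%. Kupffer cell and macrophage markers, the largest list with 13 probe sets of 8 genes, had 4, 3, 1 and 1 called higher in WT liver at these times. At the same times 1, 2, 0 and 0 of these markers were lower, and 0 were called in Aag null liver. Their mean signal was 3.87 to 3.95 on the WT and 4.04 to 4.24 on the Aag null untreated arrays, which did not overlap, and 0 of the 13 were called between these groups. Lymphocyte markers had 0, 1, 0 and 1 of 7 probe sets called in WT liver and endothelial markers 0, 0, 0 and 2 of 6. Of 9 probe sets of 7 proliferation genes, 0, 2, 1 and 0 were called in WT liver at 6, 12, 24 and 48 h and 0 at every time in Aag null liver, and the mean of these probe sets ran from 4.33 to 4.50 over the groups. Stellate and fibroblast markers had 3, 2, 3 and 2 of 8 probe sets lower and 0, 1, 0 and 0 higher in WT liver, and their group mean was 3.93 in WT untreated liver and 3.69 to 3.75 after MMS. Bile duct markers had a mean of 2.94 in WT untreated liver and 2.58 to 2.77 after MMS, with 1 of 4 probe sets lower at 6 h. The part of these cell types in the values of the repair and checkpoint genes was not tested.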

How the data were processed

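Per the labels' protocols, total RNA of mouse liver was labelled with biotin and hybridized to Affymetrix arrays. The deposited table holds 1 value per probe set and array, taken here as log2 signals made by the authors: values ran from 0.689 to 13.16, and that they are log2 was inferred from this range and is not stated. No label names the summary method. The table had 12488 probe sets, and 66 controls among them were not tested. Array medians spanned 0.215, so arrays were quantile-normalized. GEO's platform annotation named 10855 probe sets with 1 gene symbol, 396 with several and 1237 with none.

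One limma fit (R 4.3.3, limma 3.58.1) held a mean per group over 28 arrays, with 18 residual degrees of freedom, a trend of variance with mean, and Benjamini-Hochberg adjustment over 12422 probe sets in each comparison, checked on simulated data. Named with values in every array were probe sets called in at least 2 of 8 responses or in the untreated comparison, the brightest probe set of each role and the RPA subunits. The members and lists were chosen with earlier results of these data known. The number of arrays limits the precision. Alternatives covered scaling, filters, probe set choice, array weights, the groups fitted, the array set, female-typical arrays, the replicate number and leaving out each array. Same-numbered arrays were not taken as pairs: 11 of 32 pairs correlated over 0.1, the highest those of Aag null and WT liver at 6 h (0.887 and 0.741), and no comparison with 3 or more pairs had every pair over it. Plots were made in matplotlib 3.10.9 under Python 3.11.15.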

Additional observations from a re-analysis of the deposited data

Results flagged for a closer look

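In the comparison of the responses, the Rpa2 difference at 48 h was smaller in Aag null than in WT liver by 1.52 (log2, limma adjusted p = 0.0143), the single member called in the 4 such tests. On arrays, 1 sample was flagged in 2 cases because its gap to the nearest array was large relative to the range of its group. Both were Aag null 24 h replicate 2, one of the arrays with female-typical transcripts. Rpa3 read 2.58 there, with the nearest of the other 3 arrays at 2.68, and Rpa2 read 3.74, with the nearest at 3.92. Both gaps were smaller than the SD within groups of the probe set (0.18 for Rpa3 and 0.287 for Rpa2). The 2 groups of 4 arrays were examined for 18 probe sets, 36 cases that share arrays, and chance flags about 1 in 20.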

How the results depend on the processing

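Over the 4 WT responses 27 calls were made (12 higher, 15 lower). There were 12 with the filter on dim probe sets, 15 with the brightest probe set per gene, 17 with the mean per gene, 8 with array weights, 6 with only the compared groups fitted, and 3 after adjustment for array set, alone or with a second term for the female-typical pattern. Values as deposited gave 12 higher and 18 lower, and median centring 4 higher and 24 lower. Leaving out 1 array gave 21 to 41, the highest without WT untreated replicate 3. Over the 4 Aag null responses 3 calls were made. There were 9 with array weights and 0 with only the compared groups, after adjustment for array set, without the high-set arrays, without female-typical arrays or with set and female-typical terms together, and leaving out 1 array gave 0 to 8 (8 without untreated replicate 1, 0 without untreated replicate 3 or 4, 1 without 24 h replicate 1). Between untreated genotypes 4 were called, against 1 with the filter, 2 with the brightest probe set, 2 with the mean, 1 with weights, 0 with only the compared groups, 0 with the set and female-typical terms together, and 2 to 6 leaving out 1 array (2 without Aag null untreated replicate 1); median centring gave 0 higher and 4 lower. The 1 call in the tests of unequal response became 2 with weights, 2 with the set term, 0 with only the compared groups and 0 with the set and female-typical terms together, and 0 to 4 leaving out 1 array (0 without WT 48 h replicate 1, 4 without WT untreated replicate 3). The 7 calls for late against early Aag null liver with array weights stood against 0, and leaving out 1 array gave 0 to 0 there and for late against early WT liver and treated genotypes. With the replicate number as a block (replicate block), 24, 1, 3 and 1 calls were made in these 4 families. The cause was not tested. For most of these settings the calls over all probe sets are not given here. A change in calls of the members therefore cannot be told apart from a change across all probe sets.

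Signs turned with the brightest probe set per gene for Xrcc5 (0.41, 0.26, 0.15 and 0.32 at 6, 12, 24 and 48 h in WT liver) and Hus1 (0.36, 0.42, 0.35 and 0.14, and 0.0035 between untreated genotypes), and with the mean per gene for Hus1 at 6 h (0.053) and 24 h (0.019). Of 35 called single results, 27 kept their call as deposited, 24 with median centring, 28 with the replicate block, 13 with array weights, 6 with only the compared groups and 7 with the set term. Many of these probe sets lie below the array median, where signal over background limits what can be measured.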
